A study of Mus musculus with 2 samples.

Results

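Immunoglobulin variable segments are the germline gene pieces that encode most of the antigen-binding part of an antibody chain, and their use was followed here in B cells and plasma cells of mouse liver. The segments were taken as all genes whose symbol starts with Ighv (heavy chain), Igkv (kappa light chain) or Iglv (lambda light chain) and that had at least 20 UMIs (counted RNA molecules) summed over both libraries of the study. This gave 113 members out of 346 segment genes, in a table of 33696 genes. The members were 52 of 183 Ighv, 58 of 160 Igkv and 3 of 3 Iglv genes. They were chosen by that UMI sum, so their abundance is a description only.

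The study holds 2 droplet-based single-cell RNA libraries of CD45+ cells, the immune cells, sorted by flow cytometry from mouse liver after a Ficoll density gradient. The untreated library came from wild-type C57BL/6J mice that received no injection. The ConA library came from wild-type C57BL/6J mice given concanavalin A, a plant lectin that activates T cells, intravenously at 10 mg/kg 1 time a week for 3 weeks, which the labels call a tolerance model. The mice were matched for age, and neither their age nor the number pooled into a library is given in the sources used here. Each group is a single library, so the groups could not be tested against each other. Every interval covers counting error only, and what differs between the libraries cannot be put down to ConA from these data.

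A developing B cell joins a single heavy chain V segment to D and J segments, and a single light chain V segment to a J segment, by cutting and rejoining its DNA. As a rule each cell then makes 1 heavy and 1 light chain, so a cell's V segment labels the antibody it makes. When B cells become plasma cells, transcription of the rearranged genes rises steeply and the product is secreted. Kappa chains far outnumber lambda chains in the antibodies of laboratory mice. The libraries were of the 3' kind, in which reads start at the far end of the transcript beyond the constant gene, so V segment UMIs are a small part of the antibody transcript count.

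The 2 kappa members that led in B cells are near-identical genes, and their coding sequences are shown to make clear how few bases separate them. Igkv1-117 and Igkv1-110 lie on chromosome 6 and differ at 10 of 359 bases, an identity of 97.2%. The letters are from the GENCODE M21 annotation of the GRCm38 build, 5′ to 3′, and bases 47 to 346 are printed, which hold all 10 differences, in capitals.
Igkv1-117: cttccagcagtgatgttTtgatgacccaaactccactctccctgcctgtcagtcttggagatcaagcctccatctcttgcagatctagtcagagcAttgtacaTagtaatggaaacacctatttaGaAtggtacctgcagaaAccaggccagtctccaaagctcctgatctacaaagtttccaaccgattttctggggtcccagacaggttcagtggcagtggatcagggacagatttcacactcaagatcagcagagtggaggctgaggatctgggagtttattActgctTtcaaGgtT
Igkv1-110: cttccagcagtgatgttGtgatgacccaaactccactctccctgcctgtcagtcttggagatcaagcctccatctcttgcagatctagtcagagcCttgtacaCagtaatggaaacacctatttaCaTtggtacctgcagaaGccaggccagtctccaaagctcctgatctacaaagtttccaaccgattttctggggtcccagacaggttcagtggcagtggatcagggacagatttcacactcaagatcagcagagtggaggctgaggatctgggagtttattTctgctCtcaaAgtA
The lambda segment Iglv1, on chromosome 16, is shown next. It had the most UMIs of all members, and Iglv2 differs from it at 11 of 351 bases, an identity of 96.9%, which bears on how surely a read is given to either. Bases 19 to 318 are printed, with the 9 differences among them in capitals.
Iglv1: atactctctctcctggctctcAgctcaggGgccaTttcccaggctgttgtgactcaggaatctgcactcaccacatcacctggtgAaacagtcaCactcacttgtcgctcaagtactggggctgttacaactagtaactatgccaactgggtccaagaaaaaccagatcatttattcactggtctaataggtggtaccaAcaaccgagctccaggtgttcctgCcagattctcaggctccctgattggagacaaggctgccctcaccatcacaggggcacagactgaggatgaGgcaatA
Iglv2: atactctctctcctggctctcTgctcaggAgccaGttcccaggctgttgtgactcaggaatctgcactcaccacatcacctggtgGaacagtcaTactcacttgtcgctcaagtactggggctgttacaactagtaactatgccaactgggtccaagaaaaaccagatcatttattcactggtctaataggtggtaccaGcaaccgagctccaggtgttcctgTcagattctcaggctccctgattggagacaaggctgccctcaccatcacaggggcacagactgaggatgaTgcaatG
Among the 111 members with a coding sequence, 9 were at least 98% identical to another segment gene, and counts of such members are uncertain.

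The members held 96.2% of all segment UMIs, with 2602 UMIs in the untreated and 14654 in the ConA library. At the other end, 119 of the 346 segment genes had no UMI in either library. Just inside the threshold of 20 were Ighv1-5 with 20 UMIs, Igkv1-122 and Igkv3-10 with 21, and Ighv5-15 and Igkv4-61, among others, with 22. Just outside were Ighv1-42, Ighv10-1, Igkv1-99, Igkv12-89, Igkv4-79 and Igkv8-28 with 19 each and Ighv8-8 with 18. The annotation lists 111 members as functional segments and 2 as pseudogenes, Igkv2-107 with 120 UMIs and Igkv2-116 with 31. Members fell into 11 Ighv, 16 Igkv and 3 Iglv families, where a family groups segments of similar sequence.

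After filters on depth and mitochondrial UMIs, 17632 of 18088 untreated and 17767 of 18762 ConA barcodes were kept, and 82 barcodes occurred in both libraries. A cell entered the plasma gate with at least 5 UMIs of Jchain, which joins IgA and IgM units, and at least 1 each of Mzb1 and Xbp1, a chaperone and a transcription factor of antibody secretion. Jchain also had to reach 0.2% of the cell's UMIs. The B gate asked for at least 2 UMIs of Cd79a, a signalling chain of the B cell receptor, and 1 of Ms4a1, which encodes CD20. A cell with any UMI of a marker gene of T, NK, plasmacytoid dendritic, mononuclear phagocyte or granulocyte cells was left out of both gates.

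The ConA library held many more plasma gate cells than the untreated library. The gate took 3 untreated cells, 0.0170% of kept cells (95% exact binomial interval 0.00351 to 0.0497), and 142 ConA cells, 0.799% (0.674 to 0.941). The share was 47.0-fold higher, a log2 ratio of 5.55 with an exact interval of 3.98 to 7.85. The B gate took 2142 untreated and 1947 ConA cells, 12.1% and 10.96% of kept cells. Without the exclusion by markers of other cell types the plasma gate held 8 and 262 cells, and those 262 cells carried 78.3% of the ConA library's member UMIs.

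Marker genes that did not define the gates were looked at as a check of the names. In the ConA plasma gate, UMIs of the plasma cell markers Txndc5 and Eaf2 were in 95.8% and 94.4% of cells. Those of Prdm1, the plasma cell transcription factor, were in 69.0%, and those of Sdc1, which encodes CD138, in 38.0%. In the B gate, Pax5, the B lineage transcription factor, had UMIs in 89.1% of untreated and 94.4% of ConA cells, and Bank1, a B cell adaptor, in 98.3% and 98.9%. Antibody RNA was also present outside the B and plasma gates in both libraries. In cells of the T gate, which have at least 2 Cd3e UMIs and lack B markers, Igkc (the kappa constant gene) was detected in 52.7% of untreated and 99.6% of ConA cells. T gate cells were therefore used as the background level for every segment. This level can hold free RNA and droplets with a second cell, which were not told apart.

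The level of segment UMIs rose in the order T gate, B gate, plasma gate in both libraries. The members together had 3.22 CPM (UMIs scaled to 1000000 UMIs of the gate) in untreated and 20.98 in ConA T gate cells, 164 and 164 in B gate cells, and 1455 and 3811 in plasma gate cells. The split by locus was the same to within 2 CPM in both B gates. Ighv members had 41.01 and 41.39 CPM, Igkv members 108 and 106, and Iglv members 15.1 and 16.8. The T gate level was thus a larger part of the B gate level in the ConA library than in the untreated library.

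**Figure D1:**
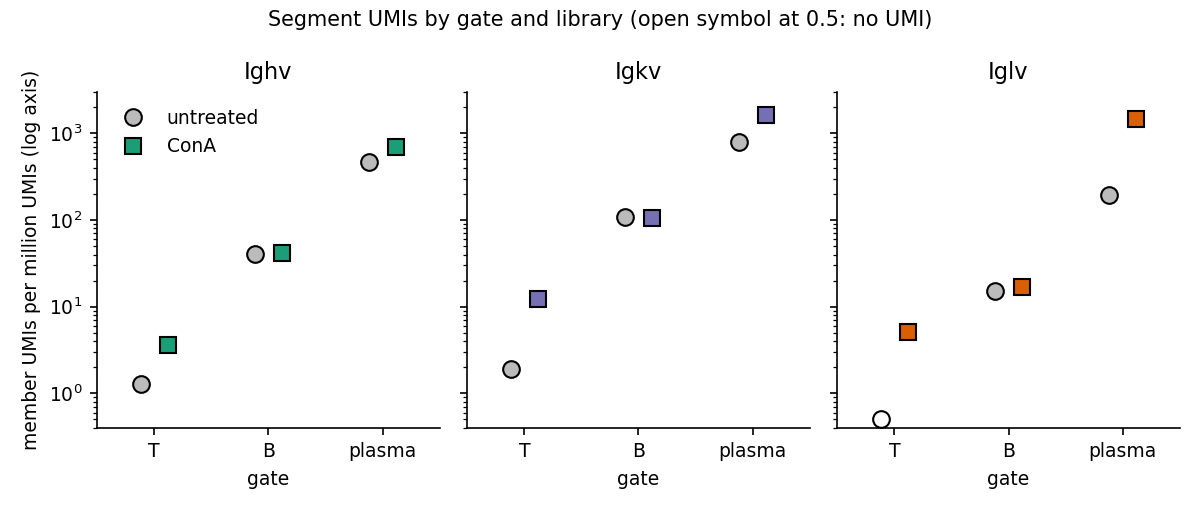
Member UMIs in CPM of the gate on a log axis, by locus (panels) and gate, for the untreated library (grey circles) and the ConA library (coloured squares); an open symbol at 0.5 marks a gate with no UMI. The B gate symbols of the libraries lie side by side in each panel, while the T gate and plasma gate symbols lie higher in ConA.

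The share of cells with any segment UMI followed the same order. An Igkv UMI was present in 22.6% of untreated and 25.01% of ConA B gate cells, against 0.849% and 4.04% of T gate cells, at median depths of 2857 and 3253 UMIs per B gate cell and 4218 and 4059 per T gate cell. After each cell was thinned to 1000 UMIs, the shares were 9.61% (8.39 to 10.9) and 9.01% (7.77 to 10.4) in the B gate and 0.381% and 0.990% in the T gate. The thinning left out 30 untreated and 15 ConA B gate cells and 9 and 13 T gate cells. In the ConA plasma gate 93.0% of cells had an Igkv UMI, 78.2% an Ighv UMI and 80.3% an Iglv UMI.

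Members made up a small part of the antibody transcripts, except at the lambda locus in the plasma gates. Igkv UMIs of the B gate were 1.48% of Igkc UMIs in the untreated and 1.40% in the ConA library, and Ighv UMIs were 0.994% and 0.911% of heavy constant UMIs. In the ConA plasma gate the figures were 0.625% for kappa and 0.736% for heavy chains. For lambda they were 0.580% and 0.706% in the B gate but 13.7% in the ConA plasma gate, which is taken up below with Iglv1.

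By assigned cells, no heavy chain member led by a wide margin in the B gates or the ConA plasma gate. The threshold of 20 UMIs had left out 61 Ighv genes annotated as functional. Coverage and evenness therefore describe the more abundant segments only. Of the 52 members, 52 had B gate UMIs in the untreated and 48 in the ConA library, sharing 260 and 273 UMIs. The most abundant was Ighv3-6 in both, with 20 UMIs (7.69% of Ighv UMIs, 4.76 to 11.6) and 16 UMIs (5.86%, 3.39 to 9.34). A cell was assigned a segment when that segment had at least 2 UMIs and over 50% of the cell's UMIs of the locus. Only 30 untreated and 18 ConA B gate cells were assigned a heavy segment, 1.40% and 0.924% of the gate. Among them Ighv6-3 was in 3 and 2 cells, and no other segment was in more than 2.

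Evenness was given as an effective number, the inverse of the chance that 2 different draws, of cells or of UMIs, have the same segment. It equals the number of segments that would give that chance if all were used equally. By UMIs the effective number of heavy segments in the B gate was 34.4 in the untreated and 39.0 in the ConA library. The assigned B gate cells were too few for a useful value, since 17 of 23 segments in the untreated and 14 of 16 in the ConA library were in a single cell each.

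In the ConA plasma gate 96 of 142 cells were assigned a heavy segment, spread over 40 members. Ighv9-3 and Ighv1-53 led with 7 cells each, 7.29% of assigned cells (2.98 to 14.4). Ighv1-26 followed with 5 cells, and Ighv1-15, Ighv1-50, Ighv1-76 and Ighv6-3 had 4 each. The effective number over cells was 40.7, just above the 40 members seen. Over UMIs it was 21.4. Ighv4-1 held 119 of 1122 Ighv UMIs, all in 1 cell.

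The Ighv1 family, the largest of the locus with 31 members, held the most heavy segment UMIs in each of these gates. Its share was 53.5% (47.2 to 59.6) in untreated and 49.1% (43.0 to 55.2) in ConA B gate cells, and 57.4% of UMIs or 63.5% of assigned cells in the ConA plasma gate. The intervals of the B gate shares overlap. The Ighv4 family shows how far UMIs and cells can part, with 10.6% of plasma gate UMIs and 1.04% of assigned cells.

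Kappa segment use in the B gate was dominated by Igkv1-117 and Igkv1-110 in both libraries. Igkv1-117 had 130 UMIs in 60 untreated and 126 UMIs in 71 ConA B gate cells, or 19.0% and 18.0% of Igkv UMIs. Igkv1-110 had 112 UMIs in 77 and 115 UMIs in 76 cells, or 16.4% and 16.5%. In the T gate, Igkv1-117 had no UMI in the untreated library and 60 UMIs in 26 ConA cells, of which 35 were in a single cell. Both segments were above background in the B gate, at 20.5 and 19.1 CPM for Igkv1-117 against 0 and 4.48 CPM in the T gate, and at 17.7 and 17.4 CPM for Igkv1-110 against 0.644 and 1.27 CPM.

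Of the B gate cells, 100 untreated (4.67%) and 91 ConA (4.67%) were assigned a kappa segment. Igkv1-117 took 35 of the 100 (35.0%, 25.7 to 45.2) and 26 of the 91 (28.6%, 19.6 to 39.0). Igkv1-110 took 22 and 24 cells. Behind them came Igkv5-43 with 6 cells in each library, Igkv8-19 with 6 untreated cells and Igkv12-44 with 3 untreated and 8 ConA cells. The order of the leading pair was the same in both libraries, and their intervals overlap.

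The effective number of kappa segments over assigned B gate cells was 5.70 in the untreated and 6.21 in the ConA library. It depended on how a cell was assigned in both libraries alike. When 1 UMI was enough, 463 and 449 cells were assigned and the numbers were 17.6 and 18.2, and over UMIs they were 12.7 and 13.4. Under each of these 3 rules the ConA value was within 1.1 times the untreated value. With a stricter B gate the direction turned, with 6.81 in the untreated and 5.77 in the ConA library.

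By assigned cells, kappa segments in the ConA plasma gate were spread over more members than in the B gate. Of 142 cells, 128 were assigned a kappa segment, and 43 members were in use. Igkv1-117 led here too, but with 13 cells, 10.2% of those assigned (5.52 to 16.7), an interval below that of the B gate cells of the same library. Igkv10-96 followed with 11 cells, Igkv12-46 and Igkv15-103 with 6 each, and Igkv1-110, Igkv1-135, Igkv6-25 and Igkv8-19 with 5 each. The 10 leading segments held 50% of assigned plasma gate cells, against 86.8% in the B gate of the same library. By UMIs the ConA gates were close. Igkv1-117 held 17.6% of Igkv UMIs in the plasma gate and 18.0% in the B gate, and the 10 leading segments held 61.8% and 64.4%.

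The effective number of kappa segments in the ConA plasma gate was 31.8 over cells, 30.9 when 1 UMI sufficed and 16.5 over UMIs. Set beside the ConA B gate values of 6.21, 18.2 and 13.4, the plasma gate value was higher under each rule, by very different amounts. At an equal number of 91 assigned cells, 38.4 members were expected in the plasma gate and 19.0 in the B gate. At an equal number of 699 UMIs the order was the opposite, with 46.3 and 51 members. The gates differed in how many cells could be assigned, 90.1% and 4.67%, and the part of this in the difference was not tested.

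**Figure D2:**
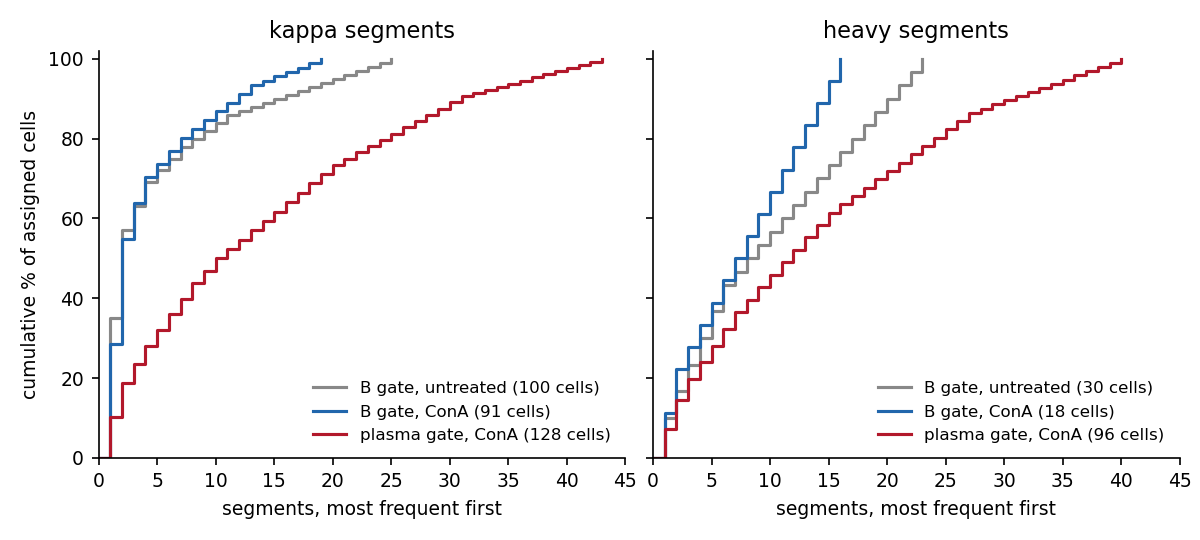
Cumulative percentage of assigned cells against the number of segments, ordered from the most frequent, for kappa (left) and heavy (right) segments in the B gate of each library and the ConA plasma gate. The kappa curves of the B gate rise steeply over the leading pair of segments and reach 100% at 25 and 19 segments, while the plasma gate curve needs 43; cell numbers differ and are given in the legend.

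By family, the Igkv1 family held 61.0% of assigned untreated and 59.3% of assigned ConA B gate cells, and 20.3% (26 of 128) of ConA plasma gate cells. By UMIs its shares were 42.5%, 40.5% and 33.7%. Igkv10 had 0, 2 and 14 assigned cells, Igkv3 had 3, 0 and 15, and Igkv4 had 0, 0 and 9. Igkv5 went the other way, with 10, 9 and 2 cells. After Igkv1, the B gate families with the most cells were Igkv5 with 10 and Igkv8 with 9 in the untreated library, and Igkv12 with 11 and Igkv5 with 9 in the ConA library. Igkv8 had 3 ConA cells, Igkv12 had 4 untreated cells, and Igkv14 had 3 and 0. Thus Igkv1 led both B gates by a wide margin, and the order behind it rests on few cells.

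**Figure D3:**
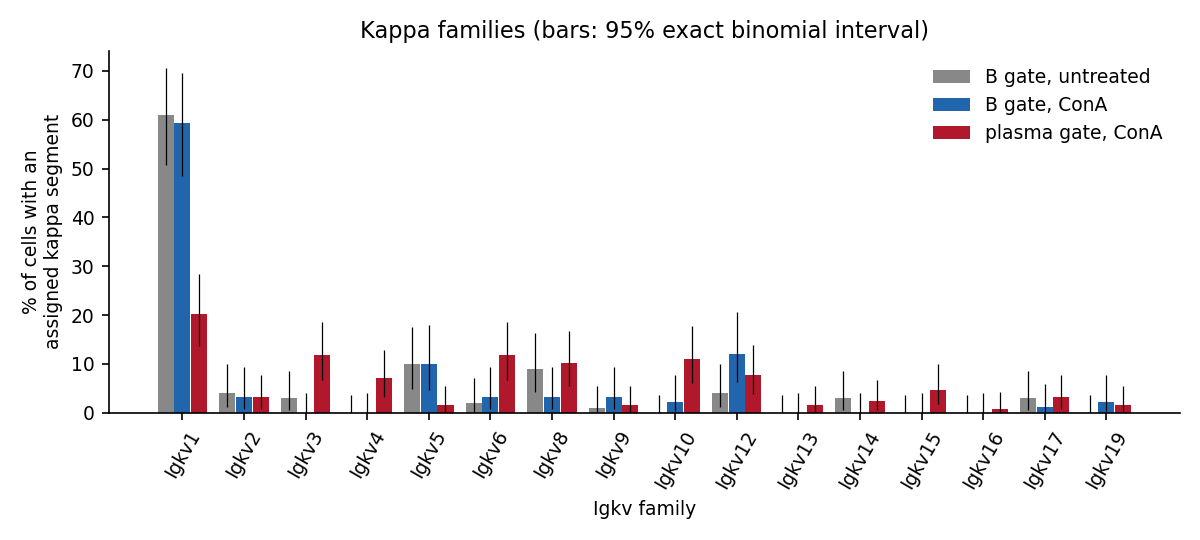
Percentage of cells with an assigned kappa segment that used each Igkv family, in the B gate of the untreated (grey) and ConA (blue) library and the ConA plasma gate (red); lines are 95% exact binomial intervals. Igkv1 stands at 61.0%, 59.3% and 20.3%, and Igkv3, Igkv4, Igkv6 and Igkv10 are higher in the plasma gate than in either B gate.

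Some segments had contrasting counts in the gates, not all of them beyond what shares of cells with a UMI can show. Igkv5-43 had 20 untreated and 30 ConA UMIs in the B gate and none in the ConA plasma gate, where a count of 0 among 142 cells allows a share of cells with a UMI of up to 2.56% (exact binomial). Its B gate shares, 0.607% and 1.13%, lie below that limit, so shares of cells with a UMI cannot show a difference at this number of cells. Such shares are also unlike between the gates, since any Igkv UMI was in far more plasma gate cells. Of all Igkv UMIs it held 30 of 699 in the ConA B gate and 0 of 2646 in the ConA plasma gate. UMIs of a single cell share a segment, so no interval is given for these. The pseudogene Igkv2-107 had 27 and 36 UMIs in the B gate, spread over 26 and 32 cells (1.21% and 1.64%), and none in the plasma gate. Its shares of cells lie below the same limit, while of the Igkv UMIs in ConA it held 36 of 699 and 0 of 2646. Igkv15-103 was the reverse, with 0 and 4 UMIs in the B gate and 124 in 7 ConA plasma gate cells, of which 74 were in a single cell. Its shares of cells were 0% and 0.205% in the B gates and 4.93% (2.005 to 9.89) in the plasma gate. In the ConA T gate it had 12 UMIs in 12 cells, or 0.896 CPM, beside 0.606 CPM in the ConA B gate. Its ConA B gate count thus did not stand above the background level. Igkv10-96 had 11 and 18 UMIs in the B gate and 100 in 15 plasma gate cells, or 0.514%, 0.822% and 10.6% of cells. Any Igkv UMI was likewise in more plasma gate than B gate cells, as given above. These 4 were picked after their values were seen.

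Across members, the UMIs of a segment in the untreated and ConA B gates ranked alike, with Spearman coefficients of 0.72 over 58 Igkv and 0.57 over 52 Ighv members. Between the B gate and the plasma gate of the ConA library the coefficients were 0.25 and 0.18. These describe ranks over segments that share libraries and have few UMIs each.

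Change between the libraries was examined for each member with at least 20 UMIs in the gate over both libraries. In the B gate 25 of 113 members reached this, 5 Ighv, 17 Igkv and 3 Iglv. None was 2-fold higher and none 2-fold lower in ConA by CPM with 5 CPM added, where 0.373% of all 11781 genes tested were 2-fold higher and 1.98% were 2-fold lower. The log2 ratios of the members ran from -0.37 for Igkv2-109 (33 and 19 UMIs) to 0.32 for Iglv1 (49 and 72 UMIs), with a median of -0.01 beside 0.03 over all genes. The added 5 CPM, larger than the level of most members, holds these ratios near 0. For Iglv1 the B gate values of 7.73 and 10.9 CPM stood beside T gate values of 0 and 4.63 CPM, and the part of free RNA in it was not tested.

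**Figure D4:**
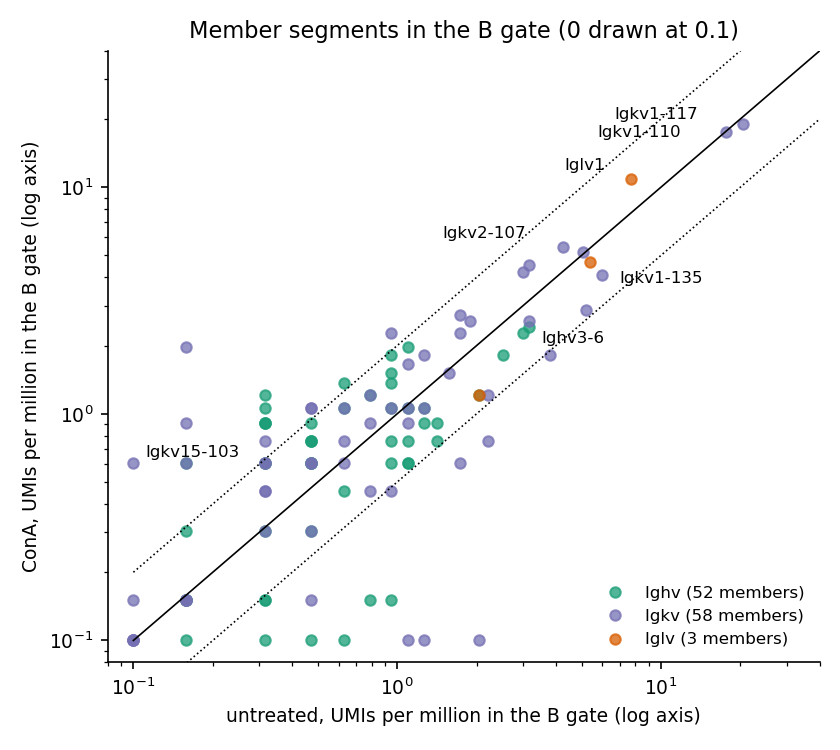
CPM in the B gate of the untreated (x) and ConA (y) library for the 113 members, both axes logarithmic, with 0 drawn at 0.1; the solid line marks equal values and dotted lines a 2-fold difference with nothing added. Igkv1-117, Igkv1-110 and Iglv1 are highest in both, and members with few UMIs scatter beyond the dotted lines.

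In the plasma gate 49 members reached 20 UMIs, nearly all through the ConA library, and 44 were 2-fold higher and 3 lower, where 34.3% and 12.7% of all 6293 genes tested were. Since the untreated gate is 3 cells, each with its own segments, nothing is read from these counts. Igkv1-117, Igkv1-110, Igkv8-19, Igkv1-135 and Igkv15-103 had 467, 220, 179, 124 and 124 UMIs in ConA and none in the 3 untreated cells, so no fold is given. Igkv9-120 was lower in ConA, at 59.4 against 439 CPM, and Ighv6-3 at 32.2 against 82.4 CPM; each of these was the segment of 1 of the 3 untreated cells.

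The 3 untreated plasma gate cells can be described one by one. The first was an Igha cell of 10545 UMIs with 3 UMIs of Ighv1-53, 16 of Igkv9-120 and no Iglv UMI. The second, also Igha, had 15407 UMIs, with 11 of Ighv1-19, 13 of Igkv6-23 and 4 of Iglv1. The third was an Ighm cell of 10470 UMIs with 3 UMIs of Ighv6-3, 2 of Iglv1 and no Igkv UMI, although it had 1092 Igkc UMIs. All 3 used different heavy segments.

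Within single plasma gate cells the segment signal was clean for heavy chains and less so for kappa chains. Of ConA plasma gate cells with at least 5 UMIs of a locus, the leading segment held at least 80% of them in 61 of 61 cells for Ighv (94.1 to 100%) and in 97 of 109 for Igkv (89.0%, 81.6 to 94.2). The 12 other cells had a second kappa segment that was of the same family in 1 cell, Igkv6-17 with Igkv6-20. In the other cells the pair came from different families, such as Igkv1-110 with 37 UMIs and Igkv6-32 with 18, or Igkv3-1 with 10 and Igkv1-135 with 6. In none of the 12 cells was the second segment the closest relative of the first. Whether they are 2 cells in a droplet was not tested.

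Lambda segments gave a different picture from the lambda constant genes. Iglv1 had 2288 UMIs in the ConA plasma gate, in 111 of 142 cells, against 20 UMIs of Iglv2 and 85 of Iglv3. By segment UMIs alone, 38 of 124 assigned cells (30.6%, 22.7 to 39.6) would be lambda cells. By the constant genes, with over 80% of light chain constant UMIs from Iglc1 to Iglc3, 4 of 142 cells (2.82%, 0.773 to 7.06) were lambda and 138 were kappa. This second count was chosen after the first had been seen.

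Most Iglv1 UMIs lay in cells whose constant gene was kappa. Of the 138 kappa cells, 88 (63.8%, 55.2 to 71.8) had at least 2 Iglv1 UMIs, and the kappa cells held 2240 of the 2288 Iglv1 UMIs. The cell with the most had 299 Iglv1 UMIs beside 11566 of Igkc and 24 of Iglc1 to Iglc3 together. The next had 292 beside 8937 and 54. A few cells carried much of this: 4 of the kappa cells held 978 of the 2240 UMIs, the median was 4, and 50 cells had 0 or 1. Iglv1 stood at 1427 CPM in the kappa cells and at 850 CPM without those 4, against 4.63 CPM in T gate cells of the same library.

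The 4 lambda cells had 65 Iglv UMIs beside 12911 of Iglc1 to Iglc3, or 0.503%, near the shares given above for kappa and heavy chains. Of these cells, 3 had 14, 20 and 9 Iglv1 UMIs beside 1544, 2642 and 2296 of Iglc1. The fourth had 15 of Iglv2 beside 5471 of Iglc2, and also 5 of Iglv1 beside 2 of Iglc1 and 910 of Iglc3. By the leading segment of each cell, Iglv1 went with Iglc1 and Iglv2 with Iglc2, pairings that the mouse lambda locus allows. Which constant gene the Iglv1 UMIs of the fourth cell were joined to was not read. Over the 142 cells Iglv1 UMIs ranked with Jchain UMIs (Spearman 0.54), Igkc (0.49), all UMIs of the cell (0.48) and Iglc1 to Iglc3 (0.42). All of these share the depth of the cell.

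**Figure D5:**
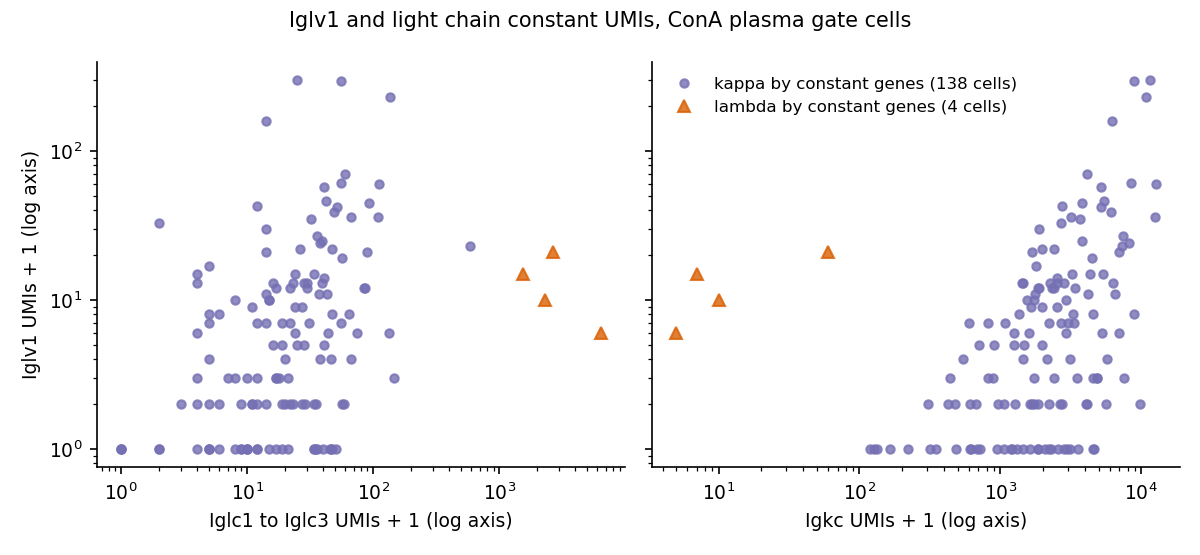
Iglv1 UMIs against lambda constant UMIs (left) and kappa constant UMIs (right) in the 142 ConA plasma gate cells, with 1 added and both axes logarithmic; circles are kappa and triangles lambda cells by their constant genes. The cells with the most Iglv1 UMIs, 299 and 292, are kappa cells, and the 4 lambda cells have at most 20.

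By segment, 2 of 101 untreated and 4 of 94 ConA B gate cells assigned a light chain were lambda, a log2 ratio of shares of 1.10 with an interval from -1.70 to 4.57. By constant genes 123 of 1942 untreated (6.33%) and 46 of 1881 ConA cells (2.45%) were lambda, a log2 ratio of -1.37 (-1.89 to -0.87). Of these 1942 and 1881 cells, 894 and 887 were kappa. The remaining 925 and 948 were mixed, as neither chain passed the cut-off used for the plasma gate cells. The percentages are therefore shares of cells that include the mixed ones, not of cells with a clear light chain. The direction of the ratio also depends on the measure. Igkc in the T gate, the background level of kappa RNA, stood at 181 and 1865 CPM, and the part of such background in the constant gene shares was not tested. Lambda segment UMIs in the B gate were 49 and 72 of Iglv1, 13 and 8 of Iglv2 and 34 and 31 of Iglv3.

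Plasma gate cells were split by the heavy constant gene with the most UMIs. Of the 142 ConA cells, 86 (60.6%, 52.0 to 68.7) were Igha, the IgA constant gene, 46 were of an IgG gene (21 Ighg1, 16 Ighg2b and 9 Ighg2c) and 10 were Ighm. No cell was Ighg3, which allows up to 2.56%. The gate asks for Jchain, which joins IgA and IgM units, so these class shares are of cells chosen by that gene. IgA is the main antibody class of mucosal surfaces, and Ighm marks cells that have not switched class.

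Both of the larger classes used many segments, but their cells were few for an effective number. Igha cells had 33 kappa segments among 76 assigned cells, an effective number of 25.7, and 27 heavy segments among 50, with 36.0. IgG cells had 24 kappa segments among 43, with 29.1, and 25 heavy segments among 39, with 39.0. Except for Igha kappa segments, these effective numbers exceed the number of segments seen, so they are not useful as measures of breadth. Igkv10-96 led the Igha cells with 9 cells, followed by Igkv1-117 with 8 and Igkv15-103 with 6. Igkv1-117 led the IgG cells with 5 cells, followed by Igkv1-110 with 4 and Igkv12-46 with 3. In the Ighm cells Igkv1-135 was in 3 of 9 assigned cells.

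The amount of segment RNA per cell also differed between classes. Igha cells had medians of 3 Ighv, 9 Igkv and 3 Iglv UMIs per cell, and IgG cells had 10, 20.5 and 10. In CPM the Ighv level was 563 in Igha and 929 in IgG cells, the Igkv level 1610 and 1722, and the Iglv level 982 and 2230. Thus Igkv members stood close to each other in CPM, while Ighv and Iglv members were higher in the IgG cells. The summed CPM can rest on few cells, since 4 cells of the gate held 978 Iglv1 UMIs and 1 cell held 119 Ighv UMIs. The weight of such cells in the class values was not tested. Cells of 1 library are not replicates, so these are descriptions.

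Heavy and kappa segments could be paired in 92 ConA plasma gate cells, giving 74 distinct pairs. Of these, 15 pairs occurred in 2 or more cells and covered 33 cells. The most frequent were in 3 cells each. Ighv1-36 with Igkv1-117 was in 1 Ighg1 and 2 Ighg2b cells, Ighv1-53 with Igkv1-117 in 3 Igha cells, and Ighv5-16 with Igkv8-19 in 3 Igha cells. The joined sequence between the segments was not read, so cells with the same pair need not be of 1 clone. In the B gate only 2 untreated cells and 1 ConA cell could be paired, and no pair was seen 2 times.

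The yield of UMIs per segment bears on which segments can be assigned. Among ConA plasma gate cells, the segment UMIs per 1000 Igkc UMIs were taken for the 20 kappa segments with at least 3 assigned cells. Their medians ran from 2.14 for Igkv6-15 to 11.6 for Igkv8-19, with 9.31 for Igkv1-117 (13 cells, 3.92 to 37.9) and 5.31 for Igkv10-96 (11 cells, 2.35 to 14.7). For 15 heavy segments the medians per 1000 heavy constant UMIs ran from 3.74 for Ighv5-9 to 14.9 for Ighv1-76. The ranges of single cells overlap even for the extremes, at 1.35 to 6.96 for Igkv6-15 (3 cells) and 2.73 to 22.9 for Igkv8-19 (5 cells), and at 2.65 to 11.9 for Ighv5-9 (3 cells) and 11.1 to 18.0 for Ighv1-76 (4 cells). Sequence properties were set beside the UMIs of the members in both B gates and the ConA plasma gate, as Spearman coefficients over 56 Igkv and 52 Ighv members. For the most A bases in any 20 they ran from -0.14 to 0.18. For coding length they ran from -0.14 to 0.09 in Igkv, and in Ighv they were 0.00, -0.25 and -0.27. For identity to the closest segment they ran from 0.11 to 0.28 in Igkv and from -0.15 to 0.19 in Ighv.

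Antibody genes outside the segments and other lists were compared in the B gate in the same way, with the same 5 CPM added. Of 7 heavy constant genes tested, 4 were 2-fold higher in ConA, where 0.373% of all genes tested in the gate were, among them Igha with 201 and 2622 UMIs and Ighg1 with 9 and 1076. In the T gate 4 of 6 tested were also higher, where 0.768% of all 12627 genes tested were and 1.23% were lower, and Igha there rose from 13.5 to 351 CPM, beside 31.7 and 397 CPM in the B gate. Of 12 secretory and plasma program genes 1 was higher, Jchain, at 8.67 and 142 CPM in the B gate and 7.09 and 147 CPM in the T gate. None of 4 light constant genes, 4 genes of rearrangement and diversification, 3 receptor partners, 6 B-1 and marginal zone genes and 5 follicular genes tested was 2-fold changed in either direction. Cd79a, a receptor partner, defines the B gate. Jchain, Mzb1 and Xbp1 define the plasma gate, whose cells are left out of the B gate. The B gate values of these genes are therefore shaped by the gates.

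Segments known from B-1 cells, the innate-like B cells that bind phosphatidylcholine or phosphorylcholine, were few. The UMIs in the untreated and ConA B gates were 6 and 0 for Ighv11-2, 14 and 5 for Igkv14-126, 5 and 0 for Igkv4-91, 3 and 4 for Ighv7-1, and 1 and 0 for Igkv7-33, while Ighv12-3 had none. None of the 6 reached 20 UMIs in the B gate. In the ConA plasma gate 5 of the 6 had no UMI and Ighv7-1 had 1. Markers of other cells in the B gate also moved between libraries. The neutrophil list summed to 1990 and 622 CPM and the erythroid list to 4767 and 20914 CPM, with Csf3r at 0 by the gate. The T list summed to 94.2 and 199.8 CPM, with 2 of 6 genes 2-fold higher, although cells with a Cd3e UMI were left out. The NK list summed to 47.5 and 76.7 CPM, with Ncr1 at 0 by the gate. The part of these lists in the segment values was not tested.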

How the data were processed

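Unnormalized UMI counts for 2 libraries were deposited as matrices, written by Cell Ranger 8.0.1 per the file headers. Seurat 4.3.0, mm39 and a different Cell Ranger version, 6.0.1, are given in the submitters' processing notes. The labels name a 3' kit, version 3.1. The untreated library had 18088 barcodes with 71289226 UMIs and the ConA library 18762 with 73589264. Cells were kept with at least 500 UMIs, 300 genes and at most 10% mitochondrial UMIs. No doublet caller was used in the main values; cells with any UMI of 5 marker genes of other types were left out of the B and plasma gates. Counts were summed per gate and given as CPM of the gate's UMIs, with ratios on log2 of CPM plus 5. Shares have 95% Clopper-Pearson intervals and ratios of shares exact conditional Poisson intervals; both cover counting error only. Named genes were the 5 Ighv and 5 Igkv members with the most assigned cells per gate and library, all Iglv members, up to 5 members per direction past 2-fold with at least 50 UMIs, the 5 largest pairs and list members. The members, gates, lists and rules were chosen with earlier results of these data known. Sequences are GENCODE M21 (GRCm38), matched by symbol. The procedure was tested on simulated counts. Python 3.11.15, scipy 1.17.1, pandas 2.3.3 and scanpy 1.11.5 were used.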

Additional observations from a re-analysis of the deposited data

How the results depend on the processing

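With 1 library per group no replicate could be left out, and evenness over assigned cells was not used for the 3 untreated plasma gate cells. Requiring 5 UMIs left fewer than 10 assigned B gate cells for evenness and too few lambda cells for a ratio, and members of at least 100 UMIs left too few for heavy segments. No paired analysis was possible because each group has 1 library. Of 113 values recomputed under an alternative, 95 stayed within 1.5 times, or within the counting interval, of the reported value and 18 moved. Without the exclusion by markers of other types, the log2 ratio of B gate shares was -0.26, and 71 members were higher and 8 lower in the plasma gate. With the stricter B gate the ratio of heavy effective numbers was 2.85 instead of 1.41, on 23 and 16 assigned cells. Requiring 5 UMIs and 80% of the locus put the lambda share in the plasma gate at 20%, summing UMIs at 47.5%, and the constant genes, chosen after seeing the data, at 2.82%. Summing UMIs gave plasma gate effective numbers of 16.5 (kappa) and 21.4 (heavy) and a leading kappa share of 17.6%. With members of at least 100 UMIs these numbers were 18.2 and 8, and 29 members were higher in the plasma gate. As shares of the UMIs of their locus, 1 member was higher and 1 lower in the B gate and 5 lower in the plasma gate. With at least 50 UMIs in the gate, 21 were higher in the plasma gate. Leaving out the 8% of barcodes that Scrublet scored highest kept every value recomputed for it within those bounds. The lambda log2 ratio in the B gate, 1.10, was -0.43 without the marker exclusion and -1.37 by constant genes. Both count among the 95 only because its interval is wide, from -1.70 to 4.57, and the sign turned in both. The ratio of kappa effective numbers in the B gate, 1.09, was 0.85 with the stricter B gate, 1.24 without the marker exclusion and 1.29 with members of at least 100 UMIs. Depth limits the assignment of a kappa segment by at least 2 UMIs to 4.67% of B gate cells.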
